A study of Mus musculus with 40 samples.

Results

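Amino acid catabolism in the mouse kidney cortex was described here through 35 enzymes, chosen by gene symbol from a list of enzymes that break down, transaminate or feed carbon out of amino acids, out of the 55401 genes in the count table. All 35 were found once in the table, all 35 are protein-coding in the GENCODE M21 annotation of GRCm38, and all 35 passed the filter on low counts in every comparison. They were picked by symbol and function, with earlier results of these data known. The tissue was renal cortex from male C57BL/6J mice that were heterozygous for the Ins2-Akita mutation, which leads to insulin-deficient diabetes, or from their wild type (WT) littermates. Each genotype was split over 4 treatments with 5 mice each, giving 8 groups and 40 RNA-seq libraries of total RNA depleted of ribosomal RNA. An ethanol vehicle (10% ethanol in water) was paired with MitoGamide at 10 mg/kg, a mitochondria-targeted scavenger of reactive dicarbonyls such as methylglyoxal. A water vehicle was paired with MitoQ, a mitochondria-targeted antioxidant, at a dose that the labels do not give. Oral gavage was daily from 6 to 22 weeks of age in the protocol, which names the ethanol and MitoGamide groups only. The Akita allele acts through the pancreatic beta cell, so the kidney carries the mutation but Ins2 itself was at 0 to 2 counts in every cortex library, and the counts could not check the genotype label. All 8 markers of the proximal tubule, the main epithelium of the cortex, had counts in every library.

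Mammalian cells degrade amino acids by removing the amino group and oxidising the carbon skeleton, mostly inside mitochondria, to products that enter the citric acid cycle, ketone bodies or glucose. The kidney cortex takes part in this for glycine, serine, proline, glutamine and the branched-chain amino acids, makes guanidinoacetate for creatine synthesis, and makes glucose from amino acid carbon, and most of these enzymes sit in proximal tubule cells. The glycine cleavage system, a mitochondrial complex of P, T, H and L proteins, splits glycine into carbon dioxide, ammonia and a methylene group carried by folate, and the serine hydroxymethyltransferases pass such groups between serine and glycine. Betaine-homocysteine methyltransferase (Bhmt) uses betaine, an osmolyte of the kidney, to turn homocysteine back into methionine.

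The promoters of the genes on which the genotype result turned are shown first, because Gldc, Amt, Shmt1 and Bhmt were higher in Akita mice and Ivd was lower in the fits described further on. Each run is 300 bases from RefSeq on GRCm38.p6, 5′ to 3′ on the strand of the gene, from 250 bases before the RefSeq start to 50 bases after it. Capitals mark 2 motifs on either strand: CCAAT, which reads ATTGG on the other strand, and GGGCGG, which reads CCGCCC. The windows are chr19:30175392-30175691 (minus strand) for Gldc, chr9:108296655-108296954 (plus) for Amt, chr11:60811216-60811515 (minus) for Shmt1, chr13:93637709-93638008 (minus) for Bhmt and chr2:118861744-118862043 (plus) for Ivd. The gene positions given further on are those of GENCODE, whose outermost start differs: the RefSeq start lies inside the GENCODE gene by 453 bases for Shmt1, 203 for Bhmt, 52 for Amt and 40 for Ivd, and 12 bases outside it for Gldc. The Shmt1 window thus lies wholly within the GENCODE gene.
Gldc: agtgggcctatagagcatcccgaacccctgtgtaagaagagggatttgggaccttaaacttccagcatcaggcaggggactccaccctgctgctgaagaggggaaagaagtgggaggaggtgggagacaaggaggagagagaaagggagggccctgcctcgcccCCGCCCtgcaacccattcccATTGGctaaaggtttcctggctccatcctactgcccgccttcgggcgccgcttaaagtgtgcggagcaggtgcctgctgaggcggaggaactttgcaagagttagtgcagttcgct
Amt: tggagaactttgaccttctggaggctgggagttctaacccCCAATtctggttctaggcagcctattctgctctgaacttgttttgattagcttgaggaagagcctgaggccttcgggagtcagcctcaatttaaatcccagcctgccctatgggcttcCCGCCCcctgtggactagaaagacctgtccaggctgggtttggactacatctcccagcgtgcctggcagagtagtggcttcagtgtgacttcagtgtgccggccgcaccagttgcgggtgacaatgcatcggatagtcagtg
Shmt1: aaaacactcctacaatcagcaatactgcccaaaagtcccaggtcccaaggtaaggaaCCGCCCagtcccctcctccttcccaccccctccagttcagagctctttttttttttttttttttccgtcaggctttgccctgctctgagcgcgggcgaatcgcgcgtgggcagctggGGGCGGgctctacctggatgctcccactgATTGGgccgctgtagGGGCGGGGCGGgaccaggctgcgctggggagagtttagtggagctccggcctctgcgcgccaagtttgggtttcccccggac
Bhmt: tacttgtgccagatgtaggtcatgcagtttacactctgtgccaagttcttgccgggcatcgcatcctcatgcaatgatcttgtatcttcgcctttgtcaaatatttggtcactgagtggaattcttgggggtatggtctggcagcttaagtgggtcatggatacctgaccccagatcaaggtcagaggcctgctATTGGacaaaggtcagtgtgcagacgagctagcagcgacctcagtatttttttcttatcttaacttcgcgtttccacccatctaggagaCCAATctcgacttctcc
Ivd: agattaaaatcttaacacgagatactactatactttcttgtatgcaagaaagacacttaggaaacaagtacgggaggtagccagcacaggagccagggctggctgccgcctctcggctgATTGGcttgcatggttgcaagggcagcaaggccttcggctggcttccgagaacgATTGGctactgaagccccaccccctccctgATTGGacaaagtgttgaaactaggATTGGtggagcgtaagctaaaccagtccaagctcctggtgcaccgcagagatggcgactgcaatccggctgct
CCAAT was present in all 5 windows, 4 times in Ivd and 2 times in Bhmt, against 37.4% of the 32817 windows of the same length in the reference table. GGGCGG was in Gldc, Amt and Shmt1 (4 matches in Shmt1, of which the last 2 overlap by 1 base) and not in Bhmt or Ivd, against 35.6% of all windows. TATAAA (13.6% of all windows), CACGTG (7.15%), TGTTTAC (3.65%), TGACGTCA (1.79%), CAAAGTCCA (0.475%) and the palindromic glucocorticoid response element (0.00914%), searched on both strands, were in none of the 5. The GC content was 60.7% in Shmt1, 59.0% in Gldc, 54.7% in Amt, 53.0% in Ivd and 48.0% in Bhmt, with a median of 52.7% over all windows. Genes that rose and the gene that fell thus shared the CCAAT letters, and the matches are a description of these windows only.

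The libraries held 9106654 to 24321424 counts, and all levels are CPM, counts scaled to the same library size, with TMM factors over the 40 libraries. Libraries of the water arm (water vehicle and MitoQ) varied more than those of the ethanol arm. The median over the 35 enzymes of the within-group SD of log2 CPM was 0.370 in the water arm and 0.132 in the ethanol arm, and 32 of 35 enzymes varied more in the water arm. The lowest library for 30 of the 35 was in the water arm, most often Akita water replicate 2 (9 enzymes), WT MitoQ replicate 3 (8) and WT water replicate 3 (6). Akita water replicates 2 and 5 and WT MitoQ replicate 3 had over 40% of their counts on the mitochondrial genome (43.1%, 40.7% and 49.2%, against a median of 27.1% over all 40). WT water replicate 1 held transcripts of hepatocytes, with Alb (albumin) at 292 CPM and Ahsg at 29.1 CPM, where no other library exceeded 31.2 and 2.23 CPM. These 4 libraries stand apart, and the counts over the treatments and on water, and the values of Bhmt, Ivd and Bcat1 on water, are also given without them.

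The enzymes covered a wide range of levels. Per kilobase of the longest coding transcript, the highest medians over the 40 libraries were 196 CPM per kb for Aldh6a1 (the last dedicated step of valine degradation) and 195 for Gatm (the first step of creatine synthesis), followed by 136 for Hgd and 111 for Fah of tyrosine breakdown, 119 for Hibadh of valine breakdown and 115 for Aass, which starts lysine degradation. At the low end stood Bcat1, the cytosolic branched-chain aminotransferase, at 0.511 CPM per kb and Bhmt at 3.23, while the mitochondrial aminotransferase Bcat2 was at 19.7. Bcat1 ranged from 0.345 to 25.4 CPM between single libraries, Bhmt from 3.02 to 86.1 and Gldc from 49.1 to 634, while the ranges of Aldh6a1 (186 to 922 CPM) and Dao (124 to 207 CPM) were narrower in proportion.

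**Figure D1:**
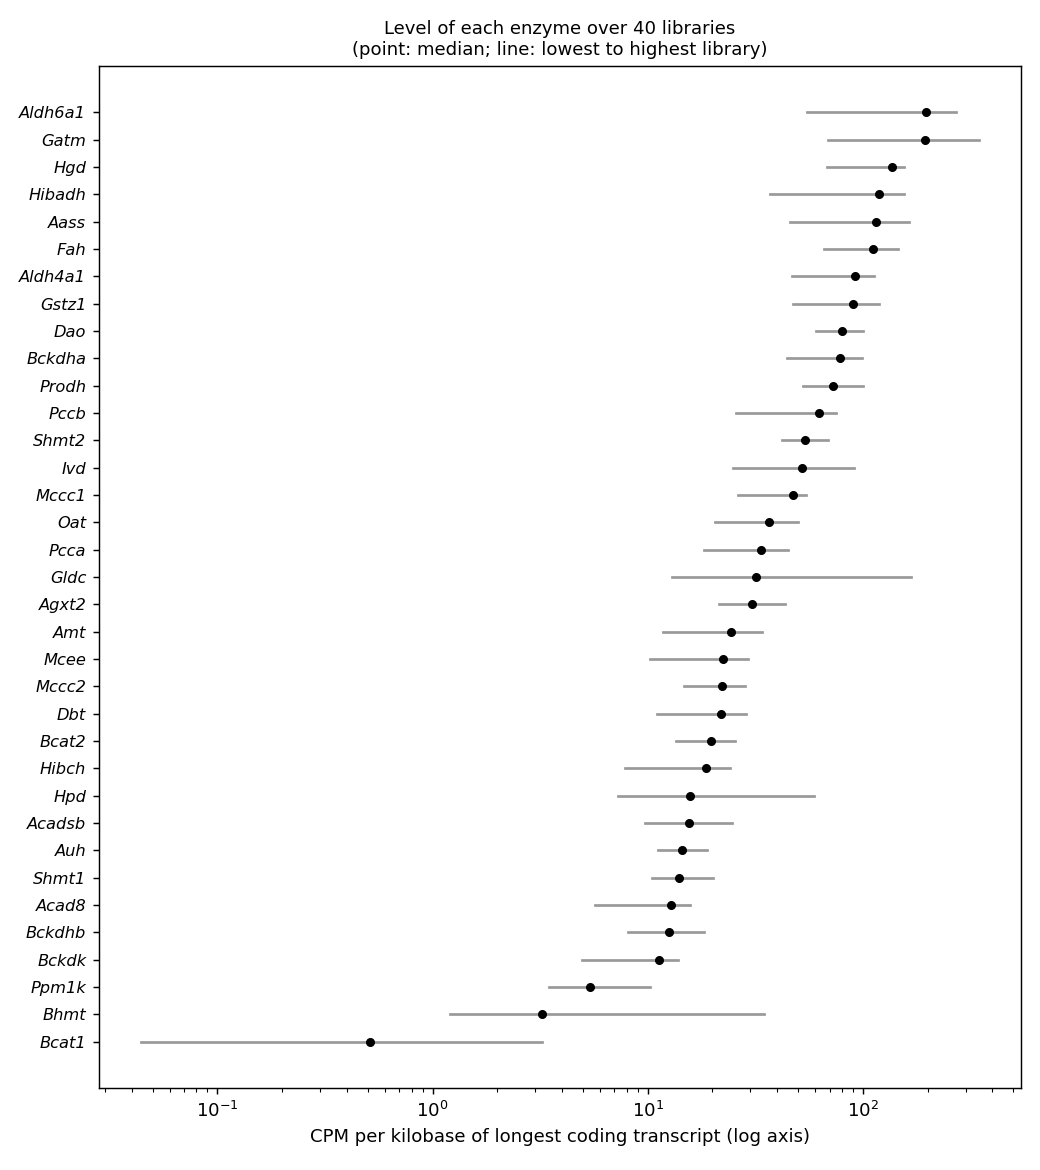
Level of each of the 35 enzymes as CPM per kilobase of its longest coding transcript, on a log axis. The point is the median and the line runs from the lowest to the highest of the 40 libraries; Aldh6a1 and Gatm have the highest medians (196 and 195), and Bhmt (3.23) and Bcat1 (0.511) the lowest.

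Diabetic and WT mice were compared first, to see how the enzymes differed with genotype whatever the treatment. In the fit over all 40 libraries with the treatment as a term, 12 of 35 enzymes passed an adjusted p of 0.05 in edgeR's quasi-likelihood test (Benjamini-Hochberg over 17769 genes). Of these, 7 were higher in Akita mice (Bhmt, Gldc, Shmt1, Amt, Prodh, Oat and Bcat2) and 5 lower (Ivd, Fah, Pcca, Mccc1 and Dao). That is 20% of the enzymes higher and 14.3% lower, against a background of 11.0% higher and 11.8% lower over all genes tested, so the lower share stands near the background. The median log2 fold change of the 35 was -0.02, the same as over all genes (-0.02), and 23 did not pass. Without the 4 libraries that stand apart, 12 enzymes passed, 7 higher and 5 lower. The lower count moved with other settings, being 2 with 6 higher when no filter on low counts was used and 11 with 6 higher when the summed level of olfactory receptor genes was a covariate. Shares of all genes are given for the main fits only, so whether these counts exceed the background of their own fits is not shown.

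**Figure D2:**
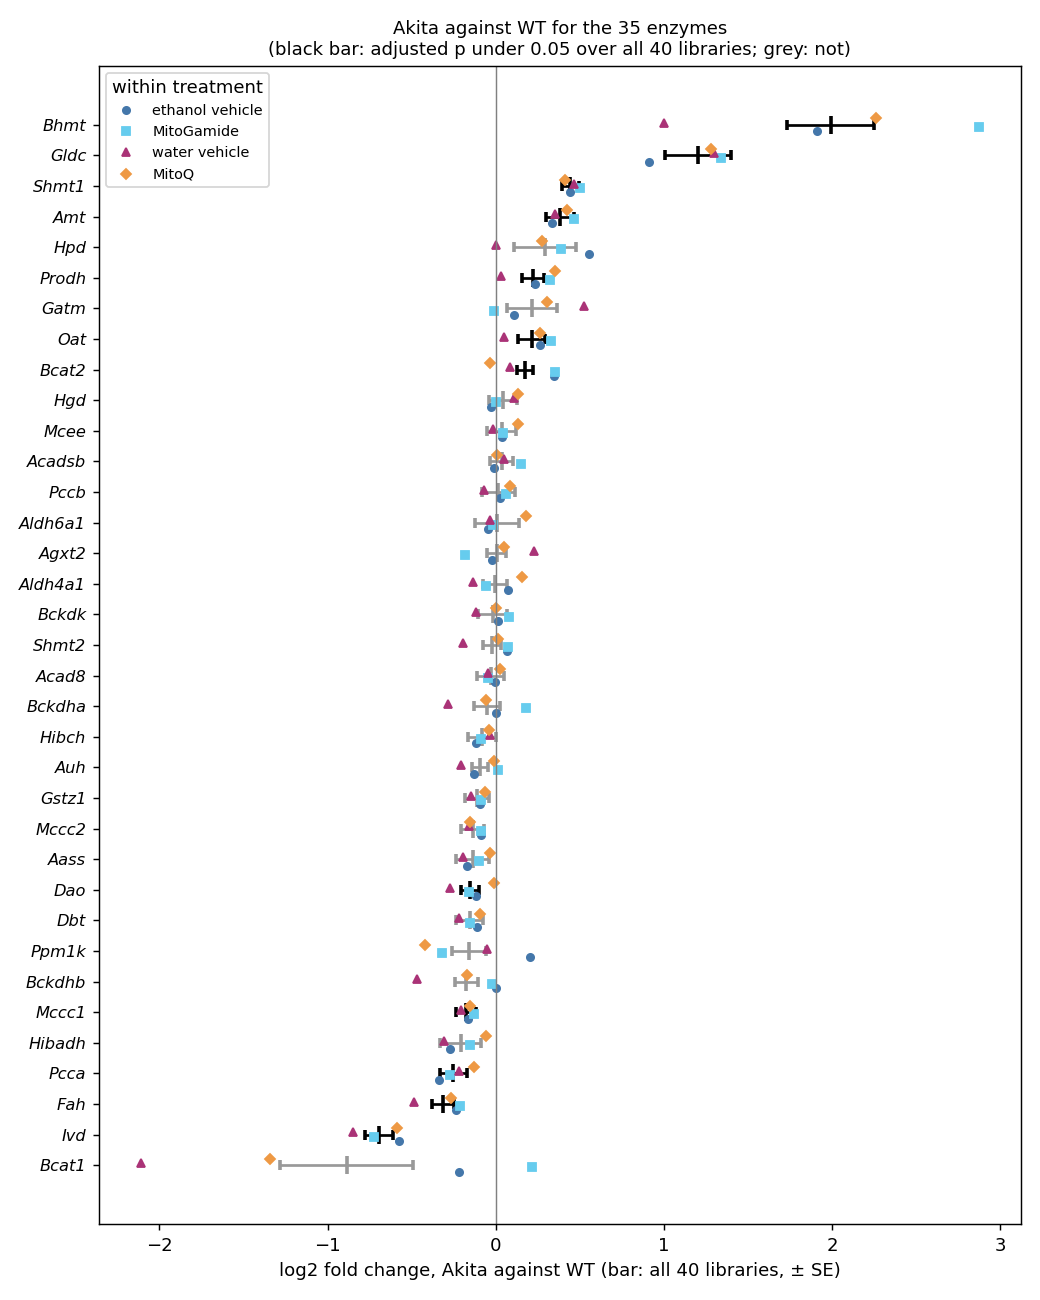
Log2 fold change of Akita against WT for the 35 enzymes. The tick with horizontal bar is the estimate ± SE over all 40 libraries (black where adjusted p is under 0.05), and the symbols are the estimates within each treatment; Bhmt (1.99) and Gldc (1.20) lie highest, and Bcat1 (-0.89, grey) and Ivd (-0.70) lowest.

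Within single treatments the counts differed with the arm. On the ethanol vehicle 9 of 35 passed: 6 higher (Bcat2, Gldc, Amt, Shmt1, Oat and Bhmt) against 8.18% of all genes, and 3 lower (Ivd, Hibadh and Pcca) against 8.22%. On MitoGamide 7 passed: 5 higher (Bcat2, Gldc, Amt, Shmt1 and Bhmt) against 7.71% of all genes, and 2 lower (Ivd and Pcca) against 6.60%. The MitoGamide groups were also fully apart in 2 library measures: mitochondrial counts were 28% to 35.4% in Akita and 24.6% to 27.8% in WT libraries, and the summed level of olfactory receptor genes was 249 to 445 CPM in Akita and 448 to 748 CPM in WT. With the latter as a covariate none of the 7 passed, while the log2 estimates were 3.66 for Bhmt, 1.33 for Gldc, 0.47 for Amt, 0.38 for Shmt1, -1.03 for Ivd, -0.42 for Pcca and 0.14 for Bcat2. By more than 1.5 times, that of Bcat2 was smaller and that of Pcca larger in size than without the covariate (0.35 and -0.27). The part of the mitochondrial share was not tested. On ethanol the genotypes overlapped in both measures (21.6% to 28.7% mitochondrial counts in Akita and 20.1% to 22.6% in WT). On the water vehicle no enzyme was called higher (0.186% of all genes) and Ivd was called lower (0.366%), and on MitoQ Bhmt was called higher (0.265%) and none lower (0.292%). At an unadjusted p under 0.05 there were 6 of 35 enzymes on water, against 7.56% of all genes, and 7 of 35 on MitoQ, against 9.06%. The same counts were 15 of 35 on ethanol, against 30.1%, 11 of 35 on MitoGamide, against 31.1%, and 14 of 35 over the treatments, against 33.4%. DESeq2 called 1 on water and 3 on MitoQ. Without the libraries that stand apart 0 were called on water. The difference of the Akita effect between ethanol and water vehicle, tested as an interaction, passed for none of the 35 (0% of 18050 genes in edgeR). At an unadjusted p under 0.05 that interaction held 1 enzyme, Bckdhb, against 4.25% of all genes, and DESeq2 called 0. Of the 12 enzymes called over the treatments, 11 had the same sign within all 4 treatments, the exception being Bcat2. Of all 35 enzymes 18 did. The 12 were picked by a fit of these same libraries, so their shared signs are not independent support. In a joint fit of all 40 libraries, which share 1 estimate of the spread, 4 of the 9 enzymes called on ethanol passed. The estimates of the 5 that did not differed by at most 0.02 from those of the separate fit: Gldc 0.90 (adjusted p = 0.242), Amt 0.32 (0.384), Oat 0.24 (0.534), Hibadh -0.29 (0.682) and Pcca -0.35 (0.267). Of the 7 called on MitoGamide, 5 passed in that fit, and Amt (0.43, adjusted p = 0.107) and Pcca (-0.31, adjusted p = 0.232) did not. The 4 single-treatment comparisons use mice separate from one another, and the fit over the treatments uses all of them.

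Of glycine cleavage and the serine hydroxymethyltransferases, 3 of 4 enzymes were higher over the treatments, where 11.0% of all genes were, with a group median of 0.41 on the log2 scale, while Shmt2 did not pass. Gldc, the glycine decarboxylase or P protein (chr19:30098447-30175429, minus strand), was 2.30-fold higher in Akita mice over the treatments (log2 fold change 1.20 ± 0.20 SE, edgeR adjusted p = 9.224e-06). It was at 89.9, 122, 106, 106 and 136 CPM in WT mice on ethanol and at 158, 174, 375, 203 and 136 CPM in Akita mice on ethanol. On MitoGamide it was at 82.0, 74.0, 118, 107 and 128 CPM in WT and at 159, 201, 104, 179 and 634 CPM in Akita. In each of these treatments 1 Akita library fell into the WT range and 1 stood far above the others.
In the water arm, WT mice on water had Gldc at 85.4, 92.5, 49.1, 71.6 and 154 CPM and Akita mice at 238, 153, 78.7, 482 and 162 CPM. On MitoQ, WT mice had 49.6, 91.0, 63.6, 94.9 and 67.7 CPM and Akita mice 169, 101, 113, 336 and 175 CPM. The groups overlapped on water and did not on MitoQ. The log2 fold changes were 0.91 ± 0.23 on ethanol (adjusted p = 0.0150), 1.34 ± 0.40 on MitoGamide (adjusted p = 0.0428), 1.30 ± 0.45 on water (adjusted p = 0.389) and 1.28 ± 0.30 on MitoQ (adjusted p = 0.0980), all from edgeR. Without Akita ethanol replicate 3 the first was 0.60 (adjusted p = 0.00726), and without Akita MitoGamide replicate 5 the second was 0.69 (adjusted p = 0.0271). The call on MitoGamide was lost in 6 of 10 fits with another library left out, namely WT replicates 1, 2, 3 and 4 and Akita replicates 2 and 4, with adjusted p up to 0.102.

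Amt, the aminomethyltransferase or T protein (chr9:108296853-108302302, plus strand), moved less but with tighter groups. Its values were 54.9, 52.1, 50.6, 49.5 and 55.9 CPM in WT and 67.8, 70.0, 68.7, 55.3 and 66.4 CPM in Akita mice on ethanol. On MitoGamide they were 51.4, 47.2, 46.9, 56.0 and 44.7 CPM in WT and 61.7, 71.0, 63.1, 68.9 and 66.8 CPM in Akita. All Akita libraries lay above all WT libraries on MitoGamide, and on ethanol all but replicate 4 did.
On water, Amt was at 48.7, 28.9, 24.7, 40.4 and 49.4 CPM in WT and at 70.1, 33.9, 40.7, 65.1 and 34.5 CPM in Akita mice. On MitoQ it was at 36.0, 43.9, 25.5, 40.1 and 41.9 CPM in WT and at 62.1, 40.7, 41.4, 53.1 and 55.0 CPM in Akita mice. Both pairs overlapped, and both water-arm differences missed the threshold (adjusted p = 0.989 and 0.450). Over the treatments Amt was 1.30-fold higher (log2 0.38 ± 0.08 SE, adjusted p = 6.958e-04). Of the partner proteins, the H protein gene Gcsh (log2 0.10 ± 0.12, adjusted p = 0.599) and the L protein gene Dld (0.01 ± 0.13, adjusted p = 0.963), which are not among the 35, did not pass.

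Shmt1, the cytosolic serine hydroxymethyltransferase (chr11:60788104-60811718, minus strand), had the smallest adjusted p of the 35, 8.257e-09, at a modest 1.36-fold (log2 0.44 ± 0.05 SE). WT mice on ethanol had 31.3, 33.5, 42.9, 34.3 and 35 CPM and Akita mice 48.0, 44.2, 41.5, 56.4 and 47.8 CPM. On MitoGamide WT mice had 35.8, 39.8, 33.8, 34.3 and 35.3 CPM and Akita mice 41.8, 48.6, 50, 51.8 and 55.6 CPM. The groups overlapped through 1 WT library on ethanol and did not overlap on MitoGamide.
WT mice on water had 34.6, 38.9, 32.9, 34.1 and 36.4 CPM and Akita mice 49.5, 43.8, 39.9, 54.0 and 57.3 CPM. WT mice on MitoQ had 31.4, 35.4, 40, 29.9 and 35.6 CPM and Akita mice 48.2, 39.1, 42.7, 53.1 and 44.5 CPM. On water every Akita library exceeded every WT library, although the adjusted p was 0.235 there and 0.177 on MitoQ. The log2 fold change stayed between 0.41 and 0.50 in the 4 treatments. Shmt1 shares 184 exonic bases with the opposite-strand gene Smcr8, whose own change was -0.17 ± 0.05 over the treatments (adjusted p = 0.0182) and -0.29 ± 0.06 on ethanol (adjusted p = 0.00317), and the counting is not stated to use strand. The mitochondrial Shmt2 had a log2 fold change of -0.02 ± 0.06 over the treatments (adjusted p = 0.821), with values of -0.20 to 0.07 within them.

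**Figure D3:**
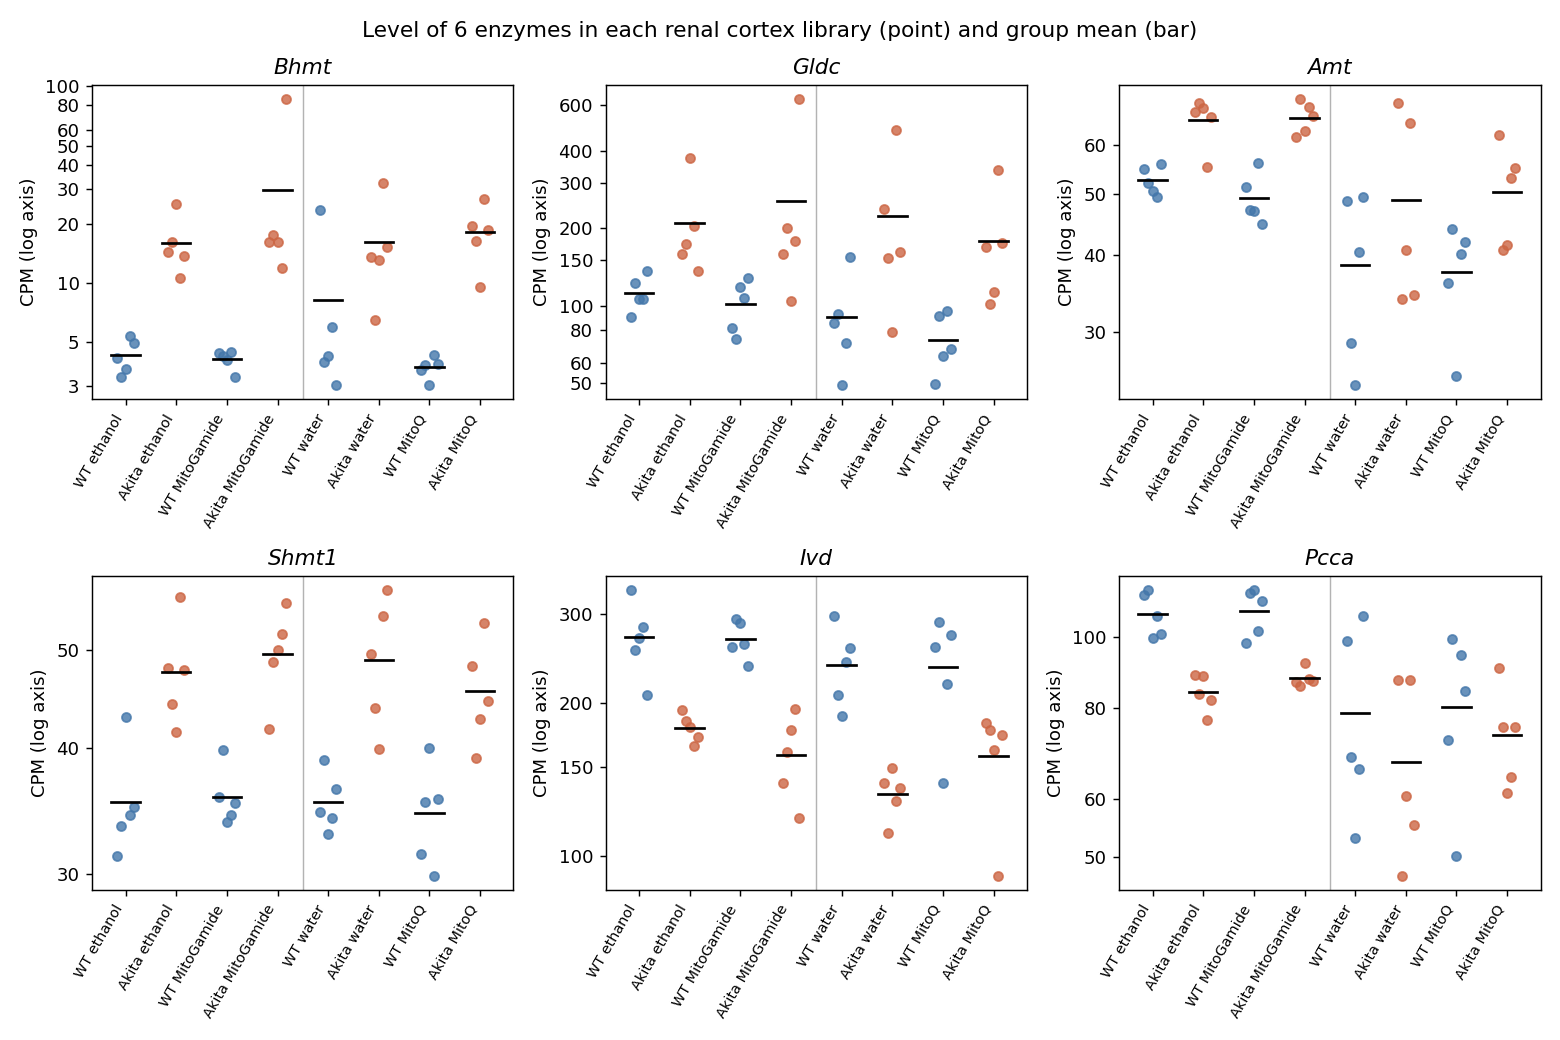
CPM of Bhmt, Gldc, Amt, Shmt1, Ivd and Pcca in each library, on log axes, by group (blue WT, orange Akita; black bar, mean of 5 libraries; the ethanol arm is left and the water arm right of the grey line). Akita means lie higher in every treatment for the first 4 genes and lower for Ivd, while single libraries overlap in at least 1 treatment for each. Akita libraries are lower for Pcca in the ethanol arm and overlap with WT ones in the water arm. For Bhmt, 1 WT water library is at 23.6 CPM and 1 Akita MitoGamide library at 86.1 CPM.

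The enzymes grouped by D-amino acid, creatine, betaine and glyoxylate chemistry gave 1 call higher (Bhmt) and 1 lower (Dao) of 4, against 11.0% and 11.8% of all genes. Bhmt (chr13:93616675-93637961, minus strand) had the largest fold of the 35 over the treatments, 3.96-fold (log2 1.99 ± 0.26 SE, adjusted p = 1.198e-07). On ethanol it was at 4.16, 3.32, 3.64, 5.36 and 4.93 CPM in WT and at 14.4, 16.2, 25.1, 10.6 and 13.7 CPM in Akita mice. On MitoGamide it was at 4.42, 4.25, 4.04, 4.43 and 3.33 CPM in WT and at 16.1, 17.6, 16.2, 11.9 and 86.1 CPM in Akita mice. Neither pair overlapped, and the last Akita library stood far above the other 4.
On MitoQ, Bhmt was at 3.60, 3.83, 3.03, 4.30 and 3.88 CPM in WT and at 19.5, 16.3, 9.57, 26.8 and 18.5 CPM in Akita mice, again without overlap. On water it was at 23.6, 3.95, 4.22, 5.94 and 3.02 CPM in WT and at 13.5, 6.50, 13.1, 32.3 and 15.2 CPM in Akita mice. Only on water did the groups overlap, through WT water replicate 1, the library with hepatocyte transcripts; the liver expresses Bhmt strongly. The other 4 WT water libraries all lay below the 5 Akita ones.
The log2 fold changes were 1.91 ± 0.21 on ethanol (adjusted p = 8.250e-05), 2.87 ± 0.52 on MitoGamide (adjusted p = 0.00523), 2.26 ± 0.24 on MitoQ (adjusted p = 0.00111) and 1.00 ± 0.58 on water (adjusted p = 0.841), from edgeR. Without WT water replicate 1 the value on water was 1.97 (adjusted p = 0.116), without Akita water replicate 4 it was 0.57 (adjusted p = 0.982), and without the libraries that stand apart 2.23 (adjusted p = 0.142). Without Akita MitoGamide replicate 5 the value on MitoGamide was 1.96 (adjusted p = 7.111e-06). In that library Ahsg had 0 counts and Alb was at 5.46 CPM, within the range of its group. In WT water replicate 1 the summed level of the 7 hepatocyte markers was 1090 CPM, against a group median of 276. The same sum ran from 657 to 1170 CPM in Akita mice on ethanol and from 778 to 1910 CPM in those on MitoGamide. It thus set that library apart within its own group and not over all groups. The part of liver RNA in its Bhmt value was not tested.
The neighbouring paralogue Bhmt2 was at 45.4 to 78.5 CPM in WT and 71.1 to 89.6 CPM in Akita mice on ethanol, where it was called higher (log2 0.41 ± 0.13, adjusted p = 0.0443). Its change over the treatments missed the threshold (0.20 ± 0.08, adjusted p = 0.0917). Dao, which oxidises D-amino acids in peroxisomes, fell by 0.15 on the log2 scale (± 0.05 SE, adjusted p = 0.0305), a call that 19 of 40 single libraries could remove and that was also lost with RLE normalization (adjusted p = 0.0524) and with no filter on low counts (adjusted p = 0.255). Gatm (0.22 ± 0.15, adjusted p = 0.320) and Agxt2, an aminotransferase of glyoxylate and methylated arginines (0.01 ± 0.06, adjusted p = 0.967), did not pass.

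Leucine, isoleucine and valine oxidation in mitochondria gave 2 of 9 enzymes lower over the treatments, Ivd and Mccc1, against 11.8% of all genes, and none higher. Ivd, isovaleryl-CoA dehydrogenase, the third step of leucine degradation (chr2:118861954-118882909, plus strand), was at 0.617 of the WT level (log2 -0.70 ± 0.08 SE, adjusted p = 1.901e-08). On ethanol it was at 335, 255, 269, 283 and 208 CPM in WT and at 194, 185, 180, 165 and 172 CPM in Akita mice. On MitoGamide it was at 259, 294, 288, 262 and 237 CPM in WT and at 139, 160, 177, 195 and 119 CPM in Akita mice. All 10 Akita libraries of this arm lay below all 10 WT libraries.
On water, Ivd was at 298, 208, 189, 241 and 257 CPM in WT and at 139, 111, 149, 128 and 136 CPM in Akita mice. On MitoQ it was at 259, 289, 139, 218 and 273 CPM in WT and at 183, 177, 162, 91.3 and 173 CPM in Akita mice. The water groups did not overlap, and those on MitoQ overlapped through WT replicate 3, which had 49.2% mitochondrial counts. The log2 fold changes were -0.57 ± 0.10 on ethanol (adjusted p = 0.00207), -0.72 ± 0.13 on MitoGamide (adjusted p = 0.00519), -0.85 ± 0.16 on water (adjusted p = 0.0442) and -0.59 ± 0.24 on MitoQ (adjusted p = 0.443), from edgeR. The call on water was lost in 9 of 10 fits without 1 library, all but that without WT water replicate 3, with log2 values of -0.92 to -0.74 and adjusted p of 0.0362 to 0.138. It was also lost with RLE normalization (adjusted p = 0.0558), with no filter on low counts (adjusted p = 0.159) and with the replicate number as a block (adjusted p = 0.120), and without the libraries that stand apart it was -0.68 (adjusted p = 0.593).
Mccc1, the biotin-carrying subunit of methylcrotonyl-CoA carboxylase in the next step of leucine degradation, had group means of 127 ± 6.38 CPM in WT and 112 ± 7.69 CPM in Akita mice on ethanol (SD, n = 5) and fell by 0.18 over the treatments (± 0.06 SE, adjusted p = 0.0232). Its call was lost without any 1 of 13 of the 40 libraries and with no filter on low counts (adjusted p = 0.214). Hibadh of the valine branch was called on ethanol only (-0.27 ± 0.07, adjusted p = 0.0244), where WT mice had 262 ± 22.5 CPM and Akita mice 214 ± 15.3 CPM (SD, n = 5). That call was lost without WT ethanol replicates 1 or 4 or Akita ethanol replicates 2 or 4 (adjusted p up to 0.0645), and over the treatments the value was -0.21 ± 0.12 (adjusted p = 0.233).
The other 6 of this group, Mccc2 (the partner subunit of Mccc1), Auh (the hydratase that follows it), Acad8 and Hibch of valine, Acadsb of isoleucine and Aldh6a1, passed in no genotype comparison, with log2 fold changes over the treatments of -0.14 to 0.04. Negative values were held by 9 of 9 in the group on ethanol (median -0.12, against -0.00206 over all genes), by 7 on MitoGamide (-0.09, against 0.01), by 8 on water (-0.16, against 0.00222) and by 6 on MitoQ (-0.04, against -0.00137).

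Pcca, the biotin-carrying subunit of propionyl-CoA carboxylase, which takes the propionyl-CoA left by isoleucine and valine (chr14:122534324-122891100, plus strand), was the 1 of 3 propionyl-CoA enzymes called over the treatments, where 11.8% of all genes were lower. It was at 114, 116, 99.6, 107 and 101 CPM in WT and at 88.8, 83.6, 88.3, 77.0 and 82.1 CPM in Akita mice on ethanol. On MitoGamide it was at 98.1, 115, 116, 102 and 112 CPM in WT and at 86.8, 85.6, 92.1, 87.5 and 87.1 CPM in Akita mice. Neither pair overlapped, and the log2 fold changes were -0.34 ± 0.06 (adjusted p = 0.00317) and -0.27 ± 0.07 (adjusted p = 0.0263). The call on MitoGamide was lost without Akita replicate 2 or WT replicates 2 or 3 (adjusted p up to 0.0695), with no filter on low counts (adjusted p = 0.0929) and in the joint fit.
In the water arm Pcca spread from 53.1 to 107 CPM in WT and from 47.1 to 87.4 CPM in Akita mice on water, and from 50.2 to 99.4 CPM in WT and 61.1 to 90.6 CPM in Akita mice on MitoQ. Both pairs overlapped widely and neither passed (adjusted p = 1.00 and 0.951). Over the treatments the change was -0.25 ± 0.08 (adjusted p = 0.0168), lost without Akita water replicate 2 (adjusted p = 0.0528) or WT MitoQ replicate 2 (adjusted p = 0.0503), or with no filter on low counts (adjusted p = 0.116). Pcca shares 241 exonic bases with Ggact on the opposite strand, which was called lower on ethanol (-0.24 ± 0.07, adjusted p = 0.0346) and not over the treatments (-0.15 ± 0.08, adjusted p = 0.180). The partner subunit Pccb (0.01 ± 0.10, adjusted p = 0.945) and the epimerase Mcee (0.04 ± 0.09, adjusted p = 0.825) did not pass.

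Branched-chain transamination and the branched-chain ketoacid dehydrogenase gave 1 call of 7, higher, where 11.0% of all genes were: Bcat2, the aminotransferase that starts branched-chain breakdown in mitochondria. Its mean was 35.3 ± 4.16 CPM in WT and 44.3 ± 2.25 CPM in Akita mice on ethanol, and 31.9 ± 2.05 and 39.8 ± 3.58 CPM on MitoGamide (SD, n = 5). The log2 fold changes there were 0.34 ± 0.08 (adjusted p = 0.00867) and 0.35 ± 0.09 (adjusted p = 0.0202). In the water arm the means were 43.5 ± 4.60 and 46.2 ± 5.33 CPM on water and 39.8 ± 2.73 and 38.8 ± 2.09 CPM on MitoQ, with log2 values of 0.08 ± 0.13 and -0.03 ± 0.09. Over the treatments Bcat2 was higher by 0.17 ± 0.05 on the log2 scale (adjusted p = 0.00686). WT levels of Bcat2 were thus nearer to the Akita ones in that arm, and whether the difference itself differs between arms was tested for the vehicles only, where it did not pass (0.26 ± 0.14, adjusted p = 1.00).
Bcat2 shares 622 exonic bases with the antisense gene 0610005C13Rik, which was higher in count (mean 998) and changed by -0.22 ± 0.05 (adjusted p = 0.00147), and while the libraries were made with a directional kit, the counting is not stated to use strand, without which reads of the pair cannot be told apart. The call on MitoGamide was lost without Akita MitoGamide replicate 2 (adjusted p = 0.0536). Bcat1 had the lowest estimate of the 35 (-0.89 ± 0.40, adjusted p = 0.105), from 0.22 on MitoGamide to -2.11 on water, where WT libraries ran from 1.76 to 25.4 CPM and Akita ones from 0.901 to 7.54 CPM. The 25.4 CPM were those of WT water replicate 1, the library with hepatocyte transcripts. Without it Bcat1 was at -1.71 ± 0.74 on water and -0.77 ± 0.39 over the treatments, and without the 4 libraries that stand apart at -1.62 ± 0.92 and -0.74 ± 0.40, and it passed in none of these fits. The dehydrogenase subunits Bckdha, Bckdhb and Dbt, the kinase Bckdk that inactivates the complex and the phosphatase Ppm1k that activates it had values of -0.18 to -0.02 over the treatments, none past the threshold; Bckdhb came nearest (-0.18 ± 0.07, adjusted p = 0.0572).

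Of the 4 tyrosine enzymes 1 was called, lower, against 11.8% of all genes. Fah, the fumarylacetoacetase that ends tyrosine breakdown (chr7:84585159-84606722, minus strand), was lower over the treatments at 0.805 of the WT level (log2 -0.31 ± 0.07 SE, adjusted p = 4.558e-04). Group means were 202 ± 23.2 CPM in WT and 170 ± 16.8 CPM in Akita mice on ethanol, and 209 ± 24.2 and 176 ± 13.7 CPM on MitoGamide (SD, n = 5). They were 179 ± 41.2 and 128 ± 14.6 CPM on water, and 178 ± 21.8 and 148 ± 29.4 CPM on MitoQ. In each treatment the groups overlapped and the comparison alone did not pass, with log2 values of -0.49 to -0.21, while the call over the treatments held without any 1 library (adjusted p up to 0.00226).
Hpd, the dioxygenase upstream of it, varied between libraries from 10.2 to 83.1 CPM and did not pass (0.29 ± 0.19, adjusted p = 0.274). Hgd (0.04 ± 0.08, adjusted p = 0.785) and the isomerase Gstz1 (-0.11 ± 0.07, adjusted p = 0.294), which come between them, did not pass either.

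Among the enzymes of proline, ornithine and lysine, Prodh, which starts proline oxidation, and Oat, which turns ornithine into glutamate semialdehyde, were higher over the treatments, 2 of 4 against 11.0% of all genes. Prodh had means of 163 ± 15.3 and 190 ± 21.4 CPM in WT and Akita mice on ethanol, and 148 ± 8.72 and 188 ± 23.3 CPM on MitoQ (SD, n = 5), with a change over the treatments of 0.22 ± 0.06 (adjusted p = 0.00863). Its 4 single comparisons did not pass (0.03 to 0.35). Oat was at 79.5 ± 8.72 and 94.2 ± 4.33 CPM on ethanol (log2 0.26 ± 0.07, adjusted p = 0.0295), a call lost in 6 of 10 fits without 1 library and with the receptor gene level as a covariate (adjusted p = 0.0669), and its call over the treatments was at the threshold (0.21 ± 0.08, adjusted p = 0.0499) and lost without any 1 of 16 of the 40 libraries (adjusted p up to 0.0914). With the receptor gene level as a covariate it was 0.13 (adjusted p = 0.171), and the call was also lost with no filter and with the 8 groups as the design. The next enzyme of both routes, Aldh4a1 (-0.00 ± 0.07, adjusted p = 0.981), and Aass (-0.14 ± 0.10, adjusted p = 0.354) did not pass.

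Markers of the proximal tubule, where most of these enzymes are made, were measured beside them. The summed level of its 8 markers was 14800 to 18500 CPM in WT and 11600 to 15300 CPM in Akita mice on ethanol, 15600 to 17500 and 11300 to 13800 CPM on MitoGamide, 9650 to 15900 and 9330 to 13800 CPM on water, and 9870 to 16200 and 10100 to 14300 CPM on MitoQ. The genotypes overlapped in this sum on ethanol, water and MitoQ and did not on MitoGamide. Over the treatments 3 of 8 were called lower (Lrp2, Slc34a1 and Slc27a2), against 11.8% of all genes, and none higher. The other 5 did not pass, 3 of them with positive estimates (Cubn, Slc5a12 and Slc13a3), the median was -0.12, and no marker was at 0 in any library. In bulk tissue fewer cells of a type and less RNA per cell cannot be told apart, and the part of the tubule's share in the lower levels of Ivd, Fah, Pcca, Mccc1 and Dao was not tested. Of other cell types, 3 of 4 podocyte, 3 of 6 collecting duct, 2 of 4 fibroblast and mesangium and 2 of 5 endothelium markers were called higher. So were 1 of 3 distal convoluted tubule markers and Fabp4, the only adipocyte marker tested, where 11.0% of all genes were called higher. Called lower were 3 of 4 leukocyte markers tested, 1 of 4 of the thick ascending limb and 1 of 5 of the endothelium, against 11.8% of all genes. Of the 7 hepatocyte markers, 3 were called lower (Ahsg, Cps1 and Apoh) and 1 higher (Apob, which the kidney also expresses). Ahsg and Cps1 passed the filter on low counts only with WT water replicate 1 and could not be tested without it, while Apoh was at -2.51 with and -2.41 without that library (adjusted p = 6.011e-13).

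MitoGamide and MitoQ were then compared with their vehicles, to see whether either drug moved the enzymes. No enzyme passed in any of the 4 comparisons. MitoGamide in Akita mice called 0 of 35 where 1.26% of 17051 genes were called; 5 of 35 enzymes (14.3%) had an unadjusted p under 0.05, a smaller share than the 20.9% of all genes, the smallest adjusted p was 0.141, and DESeq2 called 0. In WT mice MitoGamide called 0 of 35 and 0% of all genes in edgeR, with 4 of 35 enzymes at an unadjusted p under 0.05, near the 10.6% of all genes, and 0 called by DESeq2.
MitoQ called 0 of 35 and 0% of all genes in edgeR in Akita mice, with 1 enzyme (Bcat2) at an unadjusted p under 0.05, against 1.96% of all genes, and 0 called by DESeq2. In WT mice it called 0 of 35 and 0% of all genes, with 1 enzyme (Prodh) at an unadjusted p under 0.05, against 3.22% of all genes, and 0 called by DESeq2. The differences of the drug effect between Akita and WT, tested as interactions, called 0 of 35 and 0% of all genes for MitoGamide and again 0 of 35 and 0% for MitoQ in edgeR. Unadjusted p under 0.05 was reached by 1 enzyme for MitoGamide (the phosphatase Ppm1k, -0.53 ± 0.17, adjusted p = 0.555; 8.32% of all genes) and by 0 for MitoQ (1.14% of all genes), and DESeq2 called 0 in both.
Ppm1k gave opposite signs in the 2 genotypes: on ethanol it was at 27.7 ± 2.37 CPM in WT and 31.7 ± 3.42 CPM in Akita mice, and on MitoGamide at 33.7 ± 6.09 and 26.4 ± 4.37 CPM (SD, n = 5). That difference did not pass over all genes.
For the enzymes that differed most with genotype, the drug estimates were small or wide. Ivd changed by -0.17 ± 0.13 with MitoGamide and by 0.25 ± 0.18 with MitoQ in Akita mice. Gldc changed by 0.28 ± 0.43 with MitoGamide and by -0.32 ± 0.44 with MitoQ in Akita mice, and Bhmt by 0.87 ± 0.49 and 0.15 ± 0.36. Without Akita MitoGamide replicate 5 the MitoGamide values were -0.36 ± 0.27 for Gldc and -0.01 ± 0.20 for Bhmt, and without Akita water replicate 4 the MitoQ values were 0.18 ± 0.37 for Gldc and 0.59 ± 0.29 for Bhmt. The signs of both Gldc estimates thus turned without 1 library, as did that of Bhmt on MitoGamide, and on MitoQ that of Bhmt turned without Akita water replicate 2 (-0.04) or Akita MitoQ replicate 4 (-0.03). The WT estimate of Bhmt for MitoQ (-1.11 ± 0.52, adjusted p = 1.00) was -0.17 ± 0.22 without WT water replicate 1 (23.6 CPM). A missed threshold with 5 mice a group does not show that the drugs had no effect.

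**Figure D4:**
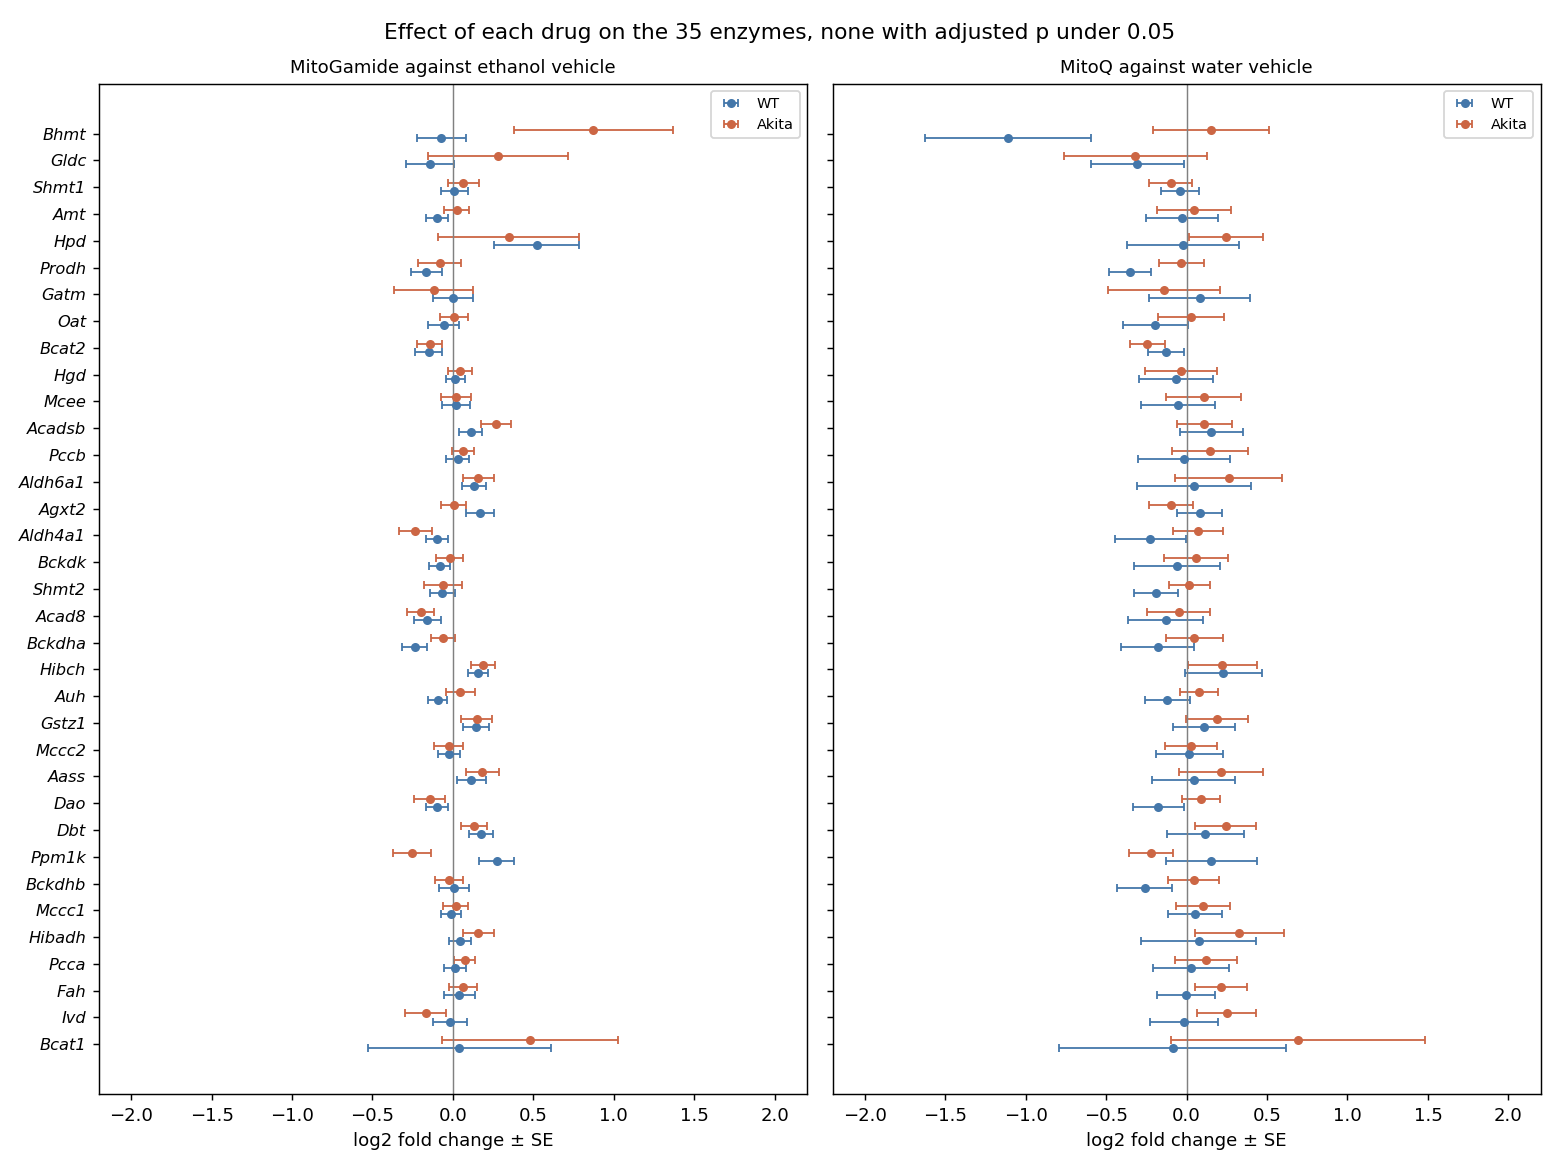
Log2 fold change ± SE of the 35 enzymes for MitoGamide against the ethanol vehicle (left) and MitoQ against the water vehicle (right), in WT (blue) and Akita (orange) mice, in the order of the genotype plot. No point has an adjusted p under 0.05; the highest and lowest estimates are those of Bhmt, 0.87 in Akita mice on MitoGamide and -1.11 in WT mice on MitoQ.

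Gldc and Bhmt were high in the same Akita libraries, a relation chosen after their values were seen. The libraries highest in Gldc within their groups were Akita MitoGamide replicate 5 (634 CPM, Bhmt 86.1 CPM), Akita water replicate 4 (482 and 32.3 CPM), Akita ethanol replicate 3 (375 and 25.1 CPM) and Akita MitoQ replicate 4 (336 and 26.8 CPM), and each was also the highest of its group in Bhmt. Across the 20 Akita libraries Pearson's r of log2 CPM was 0.746 and Spearman's rho 0.540, given as a description with no test because the pair was picked from these values. Without the 2 libraries farthest from the median of Gldc, r was 0.469. Within the ethanol arm r was 0.833 over 10 Akita libraries and -0.305 without the 2 farthest, and rho was 0.406, so that r there rests on 2 libraries. Within the water arm r was 0.647 over 10 Akita libraries and 0.5 without the 2 farthest, and rho was 0.697. In WT mice r was -0.0804 over 20 libraries, rho was -0.131, and r was -0.192 without the 2 farthest.

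**Figure D5:**
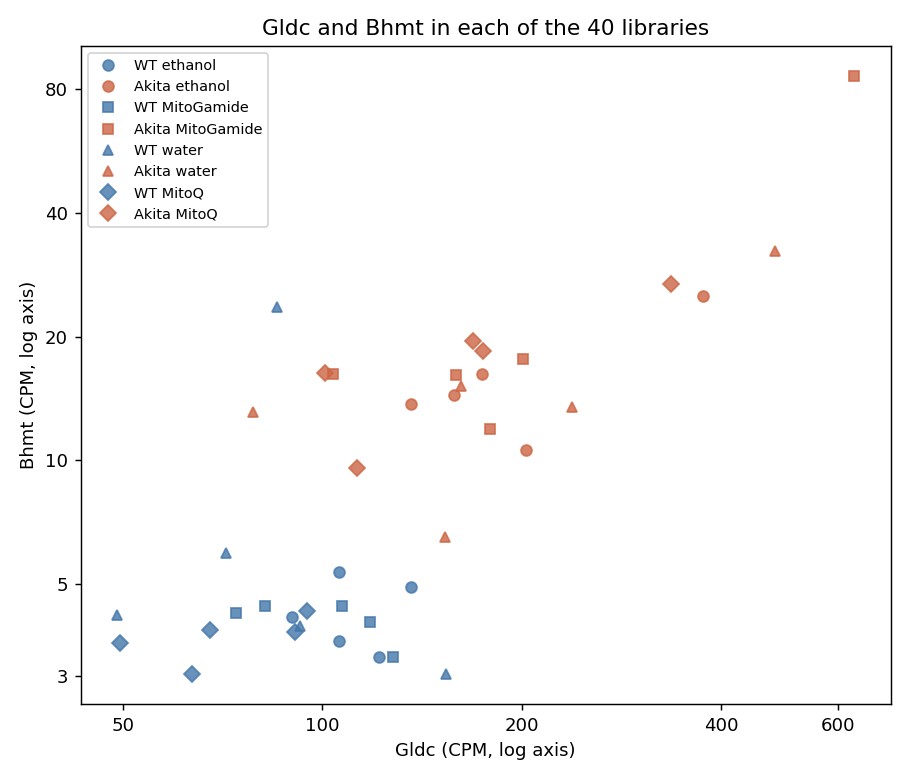
Gldc against Bhmt in CPM, both on log axes, in each of the 40 libraries (blue WT, orange Akita; circles ethanol, squares MitoGamide, triangles water, diamonds MitoQ). The highest Akita library of each treatment in Gldc (336 to 634 CPM) is also its highest in Bhmt (25.1 to 86.1 CPM), and the WT library at 23.6 CPM of Bhmt is WT water replicate 1.

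Other genes of the same pathways, 84 tested of 92 listed, gave 17 higher and 19 lower over the treatments, where 11.0% and 11.8% of all genes were, with a median of 0.00434 against -0.0215 over all genes. Each gene counts once in these totals, while Got1, Got2 and Srr stand in 2 lists each, Got1 and Got2 in those of glutamine, glutamate and alanine and of phenylalanine and tyrosine. The glutamine, glutamate and alanine list had 8 of 10 higher and none lower (median 0.57). Its leading genes were the glutamine transporter Slc38a3 (1.98 ± 0.23), the alanine aminotransferase Gpt (0.70 ± 0.09) and the gluconeogenic enzyme Pck1 (1.15 ± 0.17), with adjusted p of 7.149e-09, 3.512e-08 and 2.217e-06 in edgeR. In the histidine list 2 of 4 were higher, Ftcd (1.23 ± 0.18, adjusted p = 1.148e-06) and Uroc1 (0.39 ± 0.07, adjusted p = 2.252e-05).
The methionine and cysteine list, to which Bhmt's reaction belongs, had 4 of 15 lower and none higher. Lowest in p were Cbs (-1.10 ± 0.11), which takes homocysteine towards cysteine, Mtr (-0.47 ± 0.05), the folate-dependent methionine synthase, and Csad (-0.48 ± 0.11) of taurine synthesis, with adjusted p of 7.469e-10, 2.341e-09 and 9.690e-04. The branched-chain and propionate list had 6 of 15 lower and none higher, led by Mmaa (-0.28 ± 0.05), Aacs (-0.53 ± 0.10) and Acat1 (-0.59 ± 0.12). In the glycine, serine and threonine list 3 of 15 were lower and none higher: Glyctk (-0.67 ± 0.10), Slc25a38 (-0.21 ± 0.06) and Chdh (-0.18 ± 0.05), the last being the enzyme that makes betaine aldehyde from choline.
The proline, lysine, arginine and creatine list had 6 higher and 4 lower of 18, the lower ones including Aadat (-1.05 ± 0.12) and Odc1 (-1.50 ± 0.22). The phenylalanine and tyrosine list had 3 of 8 higher, including Maob (0.82 ± 0.20) and Got1 (0.33 ± 0.08). Of the D-amino acid list, Ddo was lower (-0.31 ± 0.07, adjusted p = 7.590e-04).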

How the data were processed

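The authors trimmed reads with Skewer, mapped them to GENCODE mouse v25 transcripts with kallisto 0.46.1 and summed transcripts to genes in R 4.0.2 (per the study's methods and the submitters' processing notes). They deposited estimated counts per gene on GRCm38, as whole numbers, and these expected counts were tested as deposited, with no further rounding. The libraries were directional, and the counting is not stated to use strand.

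A gene entered a fit if its counts averaged 10 or more across that fit's libraries. Testing used edgeR 4.0.16 in R 4.3.3 (TMM, quasi-likelihood F test, Benjamini-Hochberg over all genes tested, threshold 0.05). The SE was taken as the size of the log2 change over the root of its F statistic. Each comparison of 2 groups used its own 10 libraries, an interaction its own 20, and genotype over the treatments all 40 with treatment as an additive term, 12 comparisons in all. The script was tested on simulated data. CPM uses TMM factors over the 40 libraries. Alternatives were DESeq2 1.42.0, RLE normalization, no filter, 10 counts in every library, a replicate block, a joint fit of 40 libraries, the 8 groups as the design, each library left out and, chosen after seeing the data, the share of olfactory receptor genes as a covariate and the 4 libraries that stand apart left out (for Bcat1, Bhmt and hepatocyte markers also the 1 with hepatocyte transcripts alone).

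Replicate numbers did not mark shared mice or days in the labels. Libraries of a group differed by more than sampling noise in every pair (chi-square per gene of 9.04 or more), so none was merged, and each is taken as 1 mouse as labelled. With 9106654 to 24321424 counts, an enzyme such as Bhmt at 3.02 CPM rested on 14 counts or more in each library, and the errors given cover the spread between libraries.

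The enzymes, pathway lists and marker lists were chosen with earlier results of these data known, so none is independent support. Values in every library were planned for enzymes with an adjusted p under 0.05 in at least 3 of 4 single-treatment genotype comparisons or in any drug comparison or interaction, which named Ivd and Bhmt. Gldc, Amt, Shmt1 and Pcca were added after their values were seen, as were the full statistics of the other enzymes called over the treatments. Of each pathway list at most 3 genes with the smallest p in the 40-library fit were named among those called; Gcsh, Dld and Bhmt2 were added as partners of named enzymes. Some genes that this rule named are not reported here. Positions come from GENCODE M21 on GRCm38 (99.5% of gene IDs found), and promoters from RefSeq on GRCm38.p6 (34 of 35 enzymes had a window). Correlations were computed with NumPy 2.4.6 and SciPy 1.17.1 in Python 3.11.15, without a test, and plots were drawn with matplotlib 3.10.9.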

Additional observations from a re-analysis of the deposited data

Results flagged for a closer look

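In 10 of 104 combinations of 13 called enzymes and 8 groups of 5, 1 library lay so far from the other 4 that its gap to the nearest, divided by the range of the group, exceeded 0.71 (Dixon's value for 5). Chance gives about 1 in 20, which is 5.20 of 104. The widest gaps were in Bhmt, at 86.1 CPM in Akita MitoGamide replicate 5 against 11.9 to 17.6 CPM in the other 4, and at 23.6 CPM in WT water replicate 1 against 3.02 to 5.94 CPM. Gldc was at 634 CPM in the same Akita MitoGamide replicate 5 against 104 to 201 CPM, and at 375 CPM in Akita ethanol replicate 3 against 136 to 203 CPM. Mccc1 was at 99.7 CPM in Akita MitoGamide replicate 5 against 113 to 118 CPM. Ivd was at 91.3 CPM in Akita MitoQ replicate 4 against 162 to 183 CPM. Prodh was at 239 CPM in Akita water replicate 5 against 172 to 189 CPM, and Fah at 153 CPM in Akita MitoGamide replicate 1 against 177 to 186 CPM. Amt was at 55.3 CPM in Akita ethanol replicate 4 against 66.4 to 70.0 CPM, and Bcat2 at 28.3 CPM in WT MitoGamide replicate 1 against 32.1 to 33.4 CPM. Of these 10, 3 belong to Akita MitoGamide replicate 5, which was also the highest of the 40 libraries in 10 of the 35 enzymes. Its mitochondrial counts, 35.4%, were the highest share of the ethanol arm, whose median was 25.9%. Its chi-square per gene against the others of its group was 63.9 to 78.5, where the remaining pairs were at 13.2 to 27.6. The reason was not tested.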

How the results depend on the processing

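No called enzyme changed direction under any alternative run. Shares of all genes called are given for the main fits only, so counts under the alternatives stand without a background of their own. Over the treatments 12 enzymes were called, and 8 (6 higher, 2 lower, no filter) to 17 (6 higher, 11 lower, receptor gene share as covariate) under the alternatives, 9 to 13 with 1 library left out and 12 with the replicate block. On ethanol 9 were called, 7 to 10 with 1 library left out and 4 in the joint fit of 40 libraries, where the estimates of the other 5 moved by at most 0.02 on the log2 scale. On MitoGamide 7 were called, 4 to 7 with 1 library left out (4 without Akita MitoGamide replicate 2), 9 with the replicate block, 5 in the joint fit, and 0 with the receptor gene share as a covariate, where of these 7 estimates that of Bcat2 was smaller and that of Pcca larger in size by more than 1.5 times. On water 1 was called, 0 to 1 with 1 library left out, 0 with RLE normalization, 0 with no filter, 0 with the replicate block, 0 without the libraries that stand apart, 2 with the receptor gene share and 4 in the joint fit. On MitoQ 1 was called, 1 with each library left out, 3 by DESeq2 and 2 in the joint fit. The cause was not tested. The 4 drug comparisons and 3 interactions gave 0 calls under every alternative run. The replicate block is not a pairing by design: same-numbered libraries of 2 groups had correlations of their deviations from -0.503 to 0.708, not over 0.1 in every pair of any comparison. In the joint fit the water arm's wider spread is shared by the ethanol arm. DESeq2 gave no adjusted p for Bhmt on MitoGamide. Bcat1 and Bhmt were the least abundant of the 35, with mean counts of 97.0 and 198 over the 40 libraries. How far depth limits each enzyme was not tested.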
